A study of Homo sapiens with 36 samples.

Results

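The genes described here are the ion and solute transporter families of the kidney tubule. They were taken by symbol from GENCODE release 44, as the protein-coding genes whose name starts with SLC22A, SLC5A, SLC12A, SLC13A, SLC34A, SLC47A or SLCO followed by a digit. The rule found 65 genes of 20033 protein-coding genes, with 22 in SLC22A, 12 in SLC5A, 12 in SLCO (including the readthrough locus SLCO1B3-SLCO1B7), 9 in SLC12A, 5 in SLC13A, 3 in SLC34A and 2 in SLC47A. It takes whole families, so it also holds members used mainly outside the kidney, such as SLCO1B1 of the liver, SLC5A5 of the thyroid and SLC5A7 and SLC12A5 of the nervous system. A gene was given a site in a library when the summit of a called peak lay inside the gene body or within 20 kb of it. Where 2 windows overlap, 1 peak is counted for both genes.

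Cut&Run with an antibody against V5 was used to find where tagged HIF-α sat on chromatin. In this assay the antibody tethers a nuclease to chromatin and the released DNA fragments are sequenced. All libraries came from 786-O, a line from a human clear cell renal carcinoma. The parental cells of every line, WT included, lack working VHL and functional endogenous HIF-1α. The 36 samples form 6 lines with 3 anti-V5 and 3 IgG libraries each, and each of the 18 peak lists holds the calls of 1 anti-V5 library over its matched IgG library. WT cells carry no tag, so peaks in their lists are background of the antibody. HIF-2α KIN is 1 clone, A31, in which both copies of the endogenous HIF-2α gene carry the V5 and Halo tags. The other 4 lines stably express an exogenous tagged protein from an L30 promoter, inserted with PiggyBac, on top of the untagged endogenous HIF-2α: HIF-2α, HIF-1α, HIF-2α/1α or HIF-1α/2α. The swaps are named by their N-terminal part, with the domains for DNA binding and dimerization (together DBD), and then by their C-terminal disordered region (IDR). The labels do not say whether replicates are separate cultures, so p-values measure only the spread between these libraries. The lists hold no expression values, so the cell label could not be checked against marker genes.

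The renal tubule recovers most of what the glomerulus filters, and each segment does so with its own set of carriers. In the proximal tubule, SLC5A carriers take up glucose, SLC34A carriers phosphate and SLC13A carriers sulfate and dicarboxylates, all driven by sodium, while SLC22A, SLC47A and SLCO carriers move organic cations and anions, including many drugs. SLC12A1 in the thick ascending limb and SLC12A3 in the distal convoluted tubule are the salt carriers blocked by furosemide and by thiazides. Clear cell renal carcinoma is thought to arise from the proximal tubule, and the HIF proteins, each paired with HIF-1β, bind the hypoxia response element (HRE), a short motif with the core ACGTG or GCGTG.

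The sequences below are from hg38, plus strand, 61 bases each, and are shown as examples, chosen after their values were seen, of member sites in 8 or more tagged lists with an HRE near the summit. Capitals mark an HRE (ACGTG or GCGTG, or CACGT or CACGC where it lies on the minus strand). At SLC22A2 the capitals are CACGTG, in which a copy on each strand overlaps the other.
SLCO4A1, upstream site, chr20:62623728-62623788: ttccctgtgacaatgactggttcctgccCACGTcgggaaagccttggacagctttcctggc
SLC12A8, intron, chr3:125140286-125140346: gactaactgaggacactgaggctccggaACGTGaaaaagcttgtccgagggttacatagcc
SLC12A2, promoter, chr5:128083663-128083723: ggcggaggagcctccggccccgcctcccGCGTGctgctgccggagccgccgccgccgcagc
SLC22A11, intron, chr11:64558613-64558673: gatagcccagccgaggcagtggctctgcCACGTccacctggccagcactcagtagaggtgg
SLC22A2, intron, chr6:160255231-160255291: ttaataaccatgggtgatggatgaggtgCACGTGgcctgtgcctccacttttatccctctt
SLCO4A1, intron, chr20:62652327-62652387: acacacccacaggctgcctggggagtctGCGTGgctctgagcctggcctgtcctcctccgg
The intron site of SLC22A5 had no HRE in its region and is shown for its AP-1 motif (TGACTCA or TGAGTCA), in capitals.
SLC22A5, intron, chr5:132389853-132389913: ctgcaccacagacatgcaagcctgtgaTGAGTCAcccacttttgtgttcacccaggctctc

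The lists differed widely in length. WT lists held 392, 9508 and 743 peaks in replicates 1, 2 and 3, and tagged lists held 3984 to 20808. In every line replicate 2 gave the longest list, and WT replicate 2 stood apart from the other 2 WT lists. The depth inferred from the deposited values was 0.241 to 0.536 fragments per base in 17 lists and was not solved for HIF-2α/1α replicate 2. Absence of a call in a list does not show that a region was free of HIF. Some shares and counts of genes called are therefore also given without replicate 2, a choice made after seeing the data. The fits of fold were not run without all replicate 2 lists.

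Averaged over the tagged lists, 33.0% of the transporter genes carried a called site, against 44.1% of protein-coding genes at large. In HIF-2α KIN, 10.8%, 41.5% and 15.4% of the 65 genes had a site in replicates 1, 2 and 3. Exogenous HIF-2α gave 18.5%, 46.2% and 13.8%, and HIF-1α/2α gave 30.8%, 46.2% and 27.7%. HIF-2α/1α gave 41.5%, 52.3% and 32.3%, and HIF-1α gave 30.8%, 46.2% and 41.5%. Every tagged list except HIF-2α KIN replicate 1 therefore reached at least 13.8% of the genes, and replicate 2 was the highest list in all 5 tagged lines. WT lists gave 1.54%, 33.8% and 1.54%, so that WT replicate 2 lay inside the range of the tagged lists.

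With its spread over the 15 tagged lists, the share was 33.0% ± 13.4 (SD) for the transporter genes, 44.1% ± 14.0 for all protein-coding genes, 45.5% ± 16.0 for the 321 other SLC and SLCO genes and 48.4% ± 11.8 for a list of 39 other tubule transport genes. The members' share was below that of all genes in 14 of 15 tagged lists, by 11.1 points on average with an SD of 4.80. HIF-2α KIN replicate 2, at 41.5% against 41.2%, was the exception. Without the replicate 2 lists the mean difference was -12.5 points. The median gene length was 49.8 kb for the members and 27.5 kb for all genes, and its part in the difference was not tested. Counted by length, the 6.67 Mb of member windows held a median of 0.861 times the peaks per Mb of all gene windows, with a range of 0.594 to 1.06 over the tagged lists and a value under 1 in 13 of 15.

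**Figure D1:**
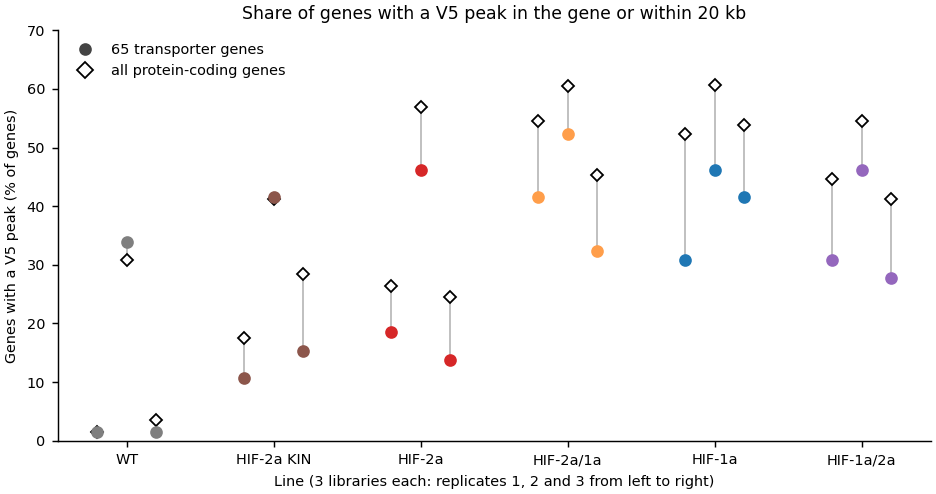
Percent of genes with a called site within 20 kb in each of the 18 anti-V5 lists, by line, for the 65 transporter genes and for all 20033 protein-coding genes. Filled circles are the transporter genes and open diamonds all genes, joined by a line for each list, with replicates 1 to 3 from left to right. The members lie below all genes in 14 of the 15 tagged lists, and replicate 2 is the highest list of every line.

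Few of the transporter genes were reached in every list, and many in none. In no tagged list did 18 of 65 genes (27.7%) have a site, against 18.4% of all protein-coding genes. Sites in 13 or more tagged lists were found for 7 genes (10.8%, against 20.6% of all genes), and in all 15 for 4 genes (6.15%, against 10.2%). The 4 were SLC12A8, SLCO4A1, SLC5A5 and SLC22A11, and SLC34A1, SLC34A3 and SLC12A3 completed the 7. The median number of tagged lists per gene was 2 for the members, 6 for all genes, 6 for other SLC genes and 7 for the other tubule transport genes.

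The families differed in how often they were called. The phosphate carriers SLC34A1 and SLC34A3, which recover phosphate in the proximal tubule, had a site in 14 tagged lists each, while SLC34A2, used mainly in lung and gut, had none. SLC12A had a median of 8 tagged lists and SLC13A of 4. The medians were 3.5 for SLC47A, 2.5 for SLC5A, 1.5 for SLC22A and 1.5 for SLCO. By place of use, from a list drawn up for this work, 5 of 22 proximal tubule genes had no site in a tagged list and 8 had a site in 8 or more, beside 18.4% and 44.4% of all protein-coding genes. Of 11 widely expressed members none was without a site and 7 had 8 or more lists, whereas of 12 members used mainly in other organs 4 were without a site and 1 reached 8 lists. The remaining 18 members outside the loop and distal tubule were in no list of use.

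Among the sodium-driven glucose carriers, SLC5A2 (SGLT2), which takes up most filtered glucose, had a site in 8 tagged lists and SLC5A10 (SGLT5) in 6. SLC5A1 (SGLT1), the high-affinity glucose carrier, had none in any of the 18 lists. The SLC5A monocarboxylate carriers SLC5A8 and SLC5A12, the choline carrier SLC5A7 and SLC5A9 also had none. SLC5A4 was listed in WT replicate 2 alone. The vitamin carrier SLC5A6 and the myo-inositol carrier SLC5A3 had 8 and 6 tagged lists. Of the 12 SLC5A genes, 6 thus had no site in a tagged list.

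The salt carriers of the loop and the distal tubule lay at opposite ends. SLC12A1, the carrier of the thick ascending limb, had no site in any list. SLC12A3, the carrier of the distal convoluted tubule, had a site in 13 tagged lists and no WT list, with 2 of 3 lists for KIN, 2 of 3 for HIF-2α and 3 of 3 for each other tagged line. SLC12A2 (NKCC1), the widely expressed form, had 12 tagged lists, and SLC12A9 also had 12. The potassium chloride carriers SLC12A4, SLC12A7 and SLC12A5 had 8, 2 and 2.

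The drug and organic ion carriers of the proximal tubule ranged from 0 to 15 tagged lists. SLC22A2 (OCT2), which brings organic cations in from the blood side, had 10 tagged lists. SLC22A6 (OAT1) and SLC22A8 (OAT3), which bring in organic anions, had 4 and 1, and the single SLC22A8 list shared its peak, in a coding exon of SLC22A6, with SLC22A6. The cation exporters SLC47A1 (MATE1) and SLC47A2 (MATE2) had 1 and 6. SLCO4C1, the organic anion carrier of the kidney, had none. The carnitine carrier SLC22A5 (OCTN2) had 12, its neighbour SLC22A4 had 11 and SLC22A11 (OAT4), an organic anion and urate carrier, had 15, while SLC22A12 (URAT1), the main urate carrier, had 2. SLC22A9, SLC22A10, SLC22A13, SLC22A14, SLC22A17 and SLC22A24 were in no list, and SLC22A25 in WT replicate 2 alone.

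The dicarboxylate carriers SLC13A2 and SLC13A3 had 1 and 4 tagged lists, and the single SLC13A2 list was HIF-2α KIN replicate 2. The sulfate carriers SLC13A1 and SLC13A4 had 9 and 12. At SLC13A1, WT replicate 2 also had a peak at the place of the tagged peaks. That peak had a fold of 10.7 and was in the top 6.51% of its list. Among the SLCO genes, SLCO4A1 had 15 tagged lists, SLCO5A1 12, SLCO3A1 11 and the prostaglandin carrier SLCO2A1 10. The SLCO3A1 lists did not share a single place. Its best summit was at 92185136 in HIF-2α replicate 1 and at 91948552 in HIF-2α/1α replicate 1. The liver carriers SLCO1B1 and SLCO1B3 had 1 and 0.

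**Figure D2:**
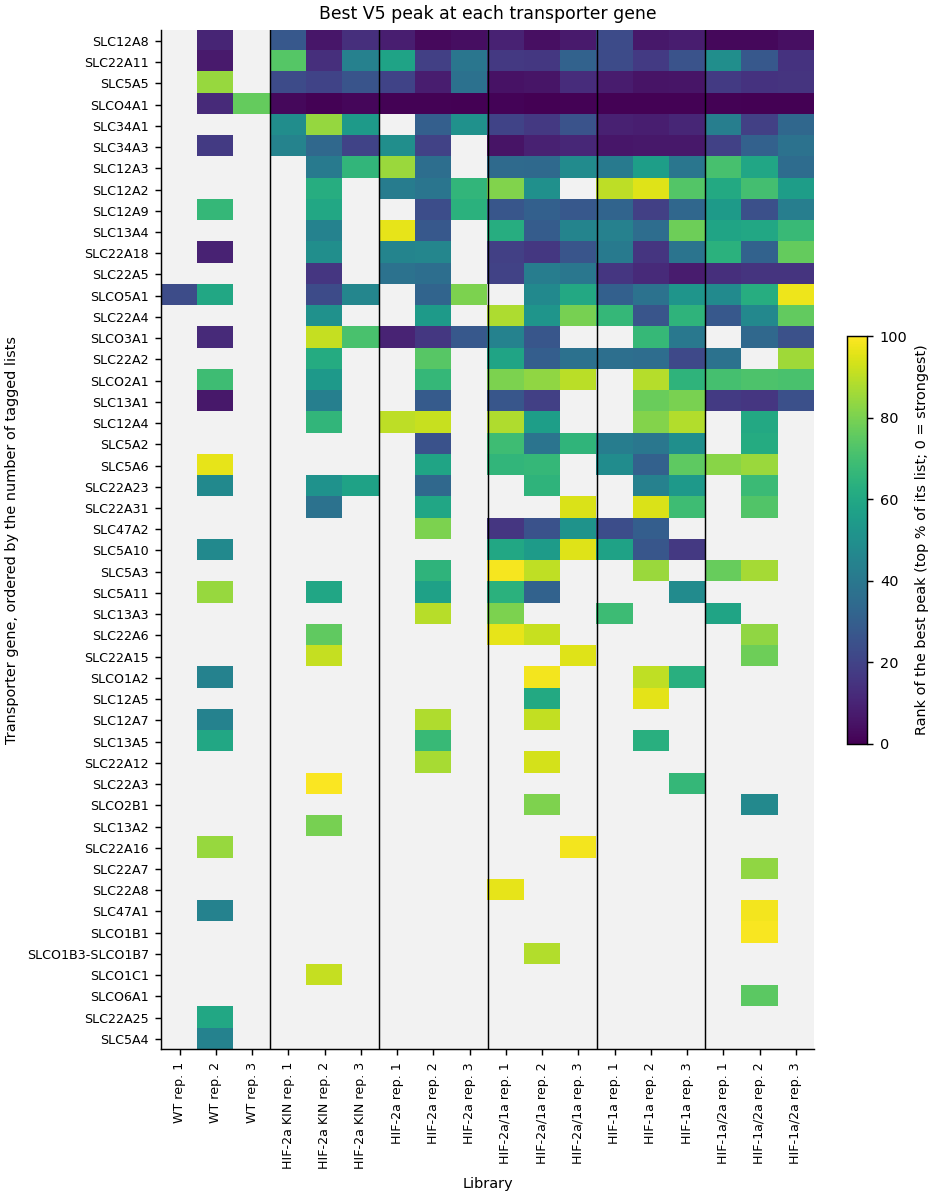
Transporter genes with a site in any list, 1 left out (vertical axis, ordered by number of tagged lists) against the 18 anti-V5 lists (horizontal axis), with colour for the rank of the gene's best peak as top percent of its list and light grey where no site was called. The 4 genes with a site in all 15 tagged lists stand at the top, SLCO4A1 has the strongest ranks, and SLC22A25 and SLC5A4 appear in WT replicate 2 alone.

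A tagged list held 8 to 71 peaks near the transporter genes, or 1.86 to 3.48 per 1000 peaks. Ranked by −log10 q within its list, the median member peak lay at the top 41.7% to 60.0%, with a mean of 52.8% over lists. Of the member peaks, 8.71% ± 4.44 (SD, n = 15) were among the top 10% of their list. The best member peak of each tagged list was at rank 19 to 180, and it belonged to SLCO4A1.

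SLCO4A1, a widely expressed carrier of organic anions and thyroid hormone, had the member site ranked highest by −log10 q in every tagged list. It spans chr20:62621414-62624624, intergenic, with its summit 18.7 kb upstream of the gene's start. Its fold enrichment over local background at the summit, a value that belongs to 1 list each, was 32.5, 57.7 and 21.6 in HIF-2α KIN and 70.6, 39.4 and 49.0 in HIF-2α. HIF-2α/1α gave 32.0, 52.1 and 42.3, HIF-1α gave 34.8, 35.5 and 39.5, and HIF-1α/2α gave 47.9, 46.8 and 33.9. All 15 tagged lists thus lay at 21.6 or more, within the top 0.248% to 2.31% of their list. WT replicates 2 and 3 also had a peak there, with a fold of 5.11 and 5.67, below every tagged list. These WT peaks ranked at the top 12.0% and 76.2% of their lists. The region held 15 HRE copies, of which the nearest lay 43 bp from the summit, in the first sequence shown above.

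Further sites surrounded the same gene. A region at chr20:62628005-62629364, 14.0 kb upstream, was called in 13 tagged lists and no WT list, with a fold of 4.13 at the lowest, 6.80 at the median and 19.3 at the highest. The SLCO4A1 promoter (chr20:62642145-62642686) was called in 7 tagged lists, and an intron site (chr20:62651774-62652585) in 8, with an HRE 1 bp from the summit. Of these 4 sites the one 18.7 kb upstream was called most often and the promoter least often.

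SLC12A8, a less studied member of the cation chloride carrier family, carried an intron site at chr3:125139982-125140902, 19.5 kb from its nearest annotated start. Its fold was 9.39, 16.0 and 9.38 in HIF-2α KIN, 30.5, 43.5 and 38.9 in HIF-2α, and 66.6, 47.5 and 36.9 in HIF-1α/2α. HIF-2α/1α gave 20.4, 43.4 and 30.9, and HIF-1α gave 9.52, 29.2 and 17.1. The 3 KIN lists were thus among the 4 lowest, and WT replicate 2 had a fold of 11.0, above KIN replicates 1 and 3. The level of fold is not comparable between lists. By rank within its list, the WT peak was in the top 10.5%, and the KIN peaks in the top 27.5%, 5.95% and 13.5%. In the 3 HIF-1α/2α lists and HIF-2α replicate 2 the fold of the SLC12A8 site was above that of the SLCO4A1 upstream site. An HRE lay 8 bp from the summit.

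SLC22A11 had an intergenic site 9.79 kb upstream, at chr11:64545562-64546132, in 14 tagged lists and no WT list. Its fold was 5.06 at the lowest, 11.4 at the median and 20.7 at the highest, and the missing list was HIF-1α replicate 3. A second site in its intron (chr11:64558312-64558989) was called in 9 tagged lists and no WT list, with an HRE 9 bp from the summit.

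Both phosphate carriers shared their windows with other genes. The most frequent SLC34A3 site, at chr9:137240315-137241554, lay 377 bp from the start of the tubulin gene TUBB4B. It was called in 14 tagged lists with a fold of 4.21, 11.3 and 25.0 at the lowest, median and highest, and in WT replicate 2 with 5.86. In the exogenous lines the 6 lists with the HIF-1α IDR ran from 13.9 to 25.0 and the 5 called lists with the HIF-2α IDR from 4.21 to 11.2. HIF-2α KIN gave 5.63, 5.47 and 11.4. These levels belong to 1 list each, and a fit with the median of each list removed is given below. At SLC34A1 the most frequent merged region, chr5:177402194-177404843, had a fold of 7.02, 13.9 and 40.5 over 12 lists. Its middle summit lay in an intron of F12, the gene of coagulation factor XII, 422 bp from the start of GRK6. The summits did not share a single place. The lowest fold, in HIF-2α KIN replicate 1, had its summit at 177404531, and the highest, in HIF-1α replicate 2, at 177402740. The promoter of SLC34A1 itself (chr5:177378990-177379869, summit 52 bp from its start) was called in 11 lists with a fold of 2.97, 7.98 and 12.3. No WT list had either.

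SLC12A3 had no single site behind its 13 lists. In 9 of them a site lay at the promoter of HERPUD1 (chr16:56931612-56932670), a gene of the endoplasmic reticulum stress response, with an HRE 11 bp from the summit, and in 6 a site lay in NUP93 (chr16:56848228-56849366). Inside the gene itself, 2 regions were called in 1 list each. SLC12A2, in contrast, was called at its own promoter (chr5:128082662-128085004) in 12 tagged lists and no WT list, with a fold of 2.56, 6.10 and 9.36 and an HRE 16 bp from the summit.

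The neighbours SLC22A4 and SLC22A5 differed in the kind of site. SLC22A4, a carrier of ergothioneine, was called at its promoter (chr5:132293299-132294634) in 11 tagged lists. SLC22A5 was called in an intron (chr5:132389570-132390142) in 12, with a fold of 3.90, 9.03 and 21.2. SLC13A4 was reached through an intron of FAM180A (chr7:135745085-135746367) in 12. SLC12A9 and SLCO5A1 were called at their own promoters in 10 and 12 tagged lists. SLCO5A1 also had a site in 2 WT lists, at places other than the promoter.

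**Figure D3:**
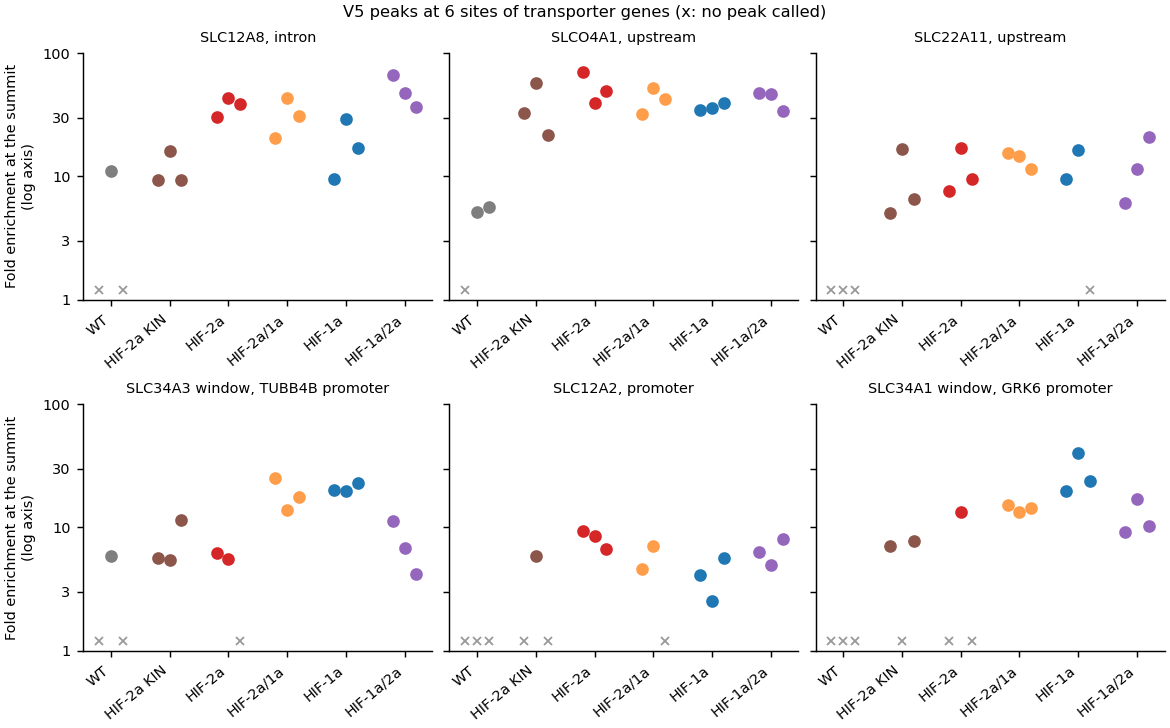
Fold enrichment at the summit (log axis) at 6 member sites, with points for the lists of each line (replicates 1 to 3 from left to right) and a grey x where no peak was called. The SLCO4A1 upstream site lies at 21.6 to 70.6 in the tagged lists, above its WT points at 5.11 and 5.67, whereas the SLC12A8 intron site has a WT point at 11.0 within the range of the tagged lists. The SLC34A1 panel shows a merged region, whose summits were not all at the GRK6 promoter. Fold belongs to 1 list each, so its level is not comparable between lists.

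Tagged lines were then compared with WT gene by gene, to ask which transporter genes were reached more often with a V5 tag present. By a two-sided Fisher's exact test of 15 tagged against 3 WT lists, with Benjamini-Hochberg adjustment over 20033 genes, 805 genes (4.02%) passed an adjusted p of 0.05, and 0 of the 65 members did. The smallest adjusted p, 0.0305, needs a site in all 15 tagged lists and no WT list, and no member had that. At an unadjusted p under 0.05, 9 members (13.8%) had a site in more tagged lists, against 19.8% of all genes. Without the replicate 2 lists 0 of all genes passed the adjusted threshold, and 5 members had an unadjusted p under 0.05. With fewer lists the smallest exact p that a gene can reach is larger, so this 0 cannot show a dependence on replicate 2.

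SLC34A1 came nearest, with 14 tagged and 0 WT lists (exact p = 0.00490, adjusted p = 0.0717). SLC12A3 had 13 and 0 (exact p = 0.0123, adjusted p = 0.133). SLC12A8, SLC22A11 and SLC5A5 had 15 and 1 (exact p = 0.0196, adjusted p = 0.141), the WT list being replicate 2 each time. A WT peak anywhere in the window counts here. At SLC12A8 it lay at the intron site, and at SLC22A11 at neither site described above. SLC12A2, SLC13A4 and SLC22A5 had 12 and 0 (exact p = 0.0245, adjusted p = 0.146), and SLC22A4 had 11 and 0 (exact p = 0.0429, adjusted p = 0.216). SLCO4A1, with 15 and 2, had an exact p of 0.167. SLC34A1 passed with windows of 50 kb or without HIF-2α replicate 1, and SLC5A5 passed with windows of 20 kb around the start alone, with a −log10 q of at least 5 and with lists of equal length.

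The mean share of members with a site was 20.7 points higher in tagged than in WT lists. Without the replicate 2 lists this was 24.8 points, and with all lists cut to the length of the shortest tagged list it was 6.87 points. Longer lists moved with the tag, and the part of list length in this difference was not tested. WT lists held 30 member peaks in all, 28 of them in replicate 2, and 20 of the member regions were called in WT lists alone.

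The 4 exogenous lines set the 2 IDRs and the 2 DBDs against each other in 6 lists each. The share of members with a site was 30.5% ± 13.6 (SD, n = 6) with the HIF-2α IDR and 40.8% ± 8.18 (SD, n = 6) with the HIF-1α one, a difference of -10.3 points. For all genes the shares were 41.3% ± 13.7 and 54.5% ± 5.69, and the lists held on average 12814 and 16949 peaks. With lists of equal length the members' difference was -1.79 points, and without replicate 2 it was -13.8 points. For the DBD the shares were 34.1% ± 15.4 with HIF-2α and 37.2% ± 8.39 with HIF-1α, a difference of -3.08 points that turned to 0.256 with lists of equal length. Both differences were smaller than the SD of the 6 lists with the HIF-2α domain. That SD includes the spread between replicate numbers, since replicate 2 was the highest list in every line, so it does not measure the error of the difference.

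By gene, no member passed an adjusted p of 0.05 for either domain, nor did any other gene. With 6 lists against 6 the smallest exact p is 0.00216, and 868 genes at that p would have been needed for any to pass. At an unadjusted p under 0.05, 191 genes (0.953%) had a site in more lists with the HIF-1α IDR, of which 1 was a member. In the other direction there were 5 genes (0.0250%) and 0 members. For the DBD, 9 genes (0.0449%) leaned to HIF-2α and 30 (0.150%) to HIF-1α, with 0 members in either.

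The member was SLC5A10, a carrier of mannose and fructose, with a site in 0 of 6 lists with the HIF-2α IDR and 6 of 6 with the HIF-1α IDR (exact p = 0.00216, adjusted p = 1). WT replicate 2 also had a site, and the 6 lists did not share a single place. Their peaks fell into 6 regions, of which the most frequent, chr17:18974476-18974862, lay in an intron that overlaps FAM83G and was called in all 3 HIF-1α lists and 1 HIF-2α/1α list. SLC5A2 had 2 against 6 lists (exact p = 0.0606), through the RUSF1 promoter (chr16:31507728-31508734, 8 lists) and its own intron (chr16:31483909-31484952, 5 lists). SLC47A2 had 1 against 5 (exact p = 0.0801), at its own promoter (chr17:19716134-19717024). The fold there was 5.29 in HIF-2α replicate 2, 20.4, 15.1 and 6.79 for HIF-2α/1α, and 13.2 and 15.0 for HIF-1α replicates 1 and 2. With lists of equal length the differences in lists were 0 for SLC5A2, -1 for SLC5A10 and -2 for SLC47A2.

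Where a site was called in all 12 exogenous lists its fold could be compared between domains. There were 2720 such regions, 4 of them in member windows, of which the upstream pair of SLCO4A1 and the intron site of SLC12A8 are described here. The log2 fold, minus the median of its list over these regions, was fitted with limma on IDR and DBD. For the IDR, 47 regions (1.73%) were higher with HIF-2α, 1 of them at a member, and 15 (0.551%) were higher with HIF-1α, 0 at members. For the DBD, 26 (0.956%) were higher with HIF-2α and 57 (2.10%) with HIF-1α, 0 at members in either direction.

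The member region was the SLC12A8 intron site. Its centred log2 fold was 1.40, 0.84 and 1.92 in HIF-2α and 2.13, 1.11 and 1.35 in HIF-1α/2α, which share the HIF-2α IDR. For HIF-2α/1α it was -0.0042, 0.69 and 0.87 and for HIF-1α -0.58, 0.46 and 0, which share the HIF-1α IDR. The groups overlapped only at HIF-2α replicate 2 and HIF-2α/1α replicate 3. The means were 1.46 and 0.24, a log2 difference of 1.22 with a standard error of 0.34 (limma adjusted p = 0.0325). This call was lost with quantile normalization (1.13, limma adjusted p = 0.0578), with ranks in place of fold (0.45, limma adjusted p = 0.153), and without any one of 6 of the 12 lists: HIF-2α replicate 3, HIF-2α/1α replicate 1, HIF-1α replicates 1 and 3, and HIF-1α/2α replicates 1 and 3, where the limma adjusted p lay between 0.0559 and 0.113. By DBD the log2 difference was 0.21 (limma adjusted p = 0.844). The IDR difference was 0.87 next to the DBD of HIF-2α and 1.57 next to that of HIF-1α, and the interaction of -0.70 did not pass the test (limma adjusted p = 1.00).

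The SLCO4A1 sites did not pass. The IDR difference was 0.56 with a standard error of 0.34 at the SLCO4A1 site 18.7 kb upstream (limma adjusted p = 0.414). It was 0.0236 at the SLCO4A1 site 14.0 kb upstream (limma adjusted p = 0.985). When regions called in 9 or more of the 12 lists were fitted, with missing values left missing, 16 member regions of 7034 regions entered. The SLC34A3 site at TUBB4B, missing in HIF-2α replicate 3, then differed by -1.46 on the log2 scale, higher with the HIF-1α IDR, with a standard error of 0.36 (limma adjusted p = 0.0257). It was 1 of 16 member regions called in that direction, beside 27 of all 7034 regions (0.384%). In that fit the SLC12A8 site, at 1.15, had a limma adjusted p of 0.0832.

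**Figure D4:**
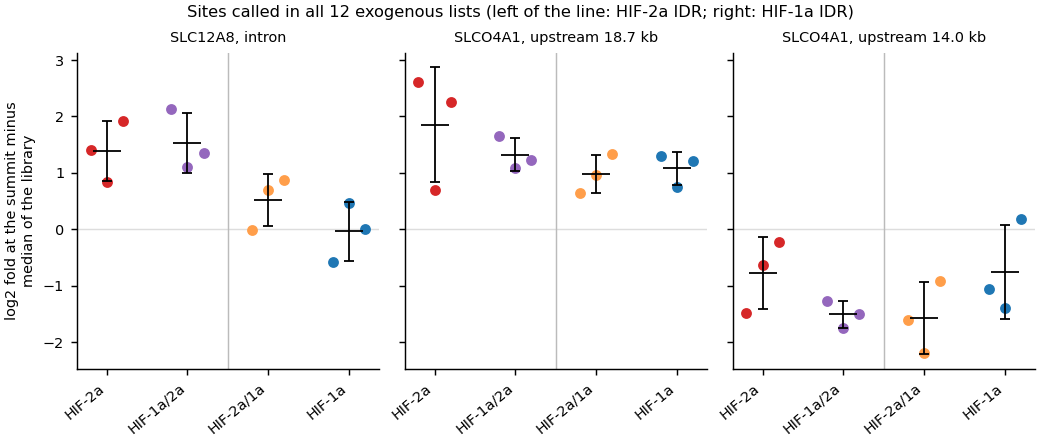
Centred log2 fold enrichment in each of the 12 exogenous lists at 3 member regions called in all of them, with points for lists, horizontal dashes and error bars for the mean and SD of 3 lists, and the lines with the HIF-2α IDR left of the grey line. The SLC12A8 intron site has a mean of 1.46 left of the line and of 0.24 right of it, and at both SLCO4A1 sites the groups overlap.

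Overlapping peaks of all lists were merged into regions to describe position and motifs. Member windows held 175 regions called in 1 or more lists, of which 100 were called in a single list and 75 in 2 or more. Of these 75, 17 lay at a member's own promoter (summit within 1 kb of a start), 13 at the promoter of another gene, 25 elsewhere in a member's body, 6 in the body of another gene and 14 between genes. So 19 of 75 were assigned to a transporter although they lay at or in another gene. Of regions in 2 or more tagged lists, 40.5% of 74 lay at a promoter of some gene, against 36.3% of 20042 regions in the windows of all protein-coding genes.

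An HRE within 50 bp of the summit, a window of 101 bp searched on both strands, was present at 33.8% of the 74 member regions and at 27.1% of the 20042. In 1 or more tagged lists it was 21.3% of 155 member regions and 19.9% of 40780. In 8 or more tagged lists it was 41.7% of 24 and 32.7% of all such regions, and in all 15 it was 3 of 3 and 36.8% of 1346. They include the SLCO4A1 upstream and SLC12A8 intron sites whose sequences are shown above. With an HRE sought within 100 bp, the shares of members and all regions were 52.7% and 49.4% in 2 or more tagged lists. In 13 or more they were 66.7% and 66.9%. AP-1 motifs within 50 bp were present at 8.11% of the 74 member regions and 7.75% of the 20042. A match of letters describes the window and is not evidence of a bound factor.

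Counted by list, 35.9% ± 11.3 (SD, n = 15) of member peaks and 26.0% ± 2.08 of all peaks had an HRE, and members were higher in 14 of 15 tagged lists. HIF-2α KIN replicate 2, with 17.9%, was the exception, and HIF-2α KIN replicate 1 was the highest with 62.5% of 8 peaks. A region called in many lists counts in each of them, so the lists are not independent measures of this share. Equally wide windows placed 1 kb to the left and right held the motif at 22.7% and 14.4%. The excess over these flanks was 13.2 ± 9.79 points for members and 11.6 ± 1.63 points for all peaks, a difference smaller than the SD between lists. Without the replicate 2 lists the members' share was 40.1%. The higher share of members did not hold for the longer motif TACGTG. For TACGTG the members were lower than all peaks in every tagged list except HIF-2α replicate 1.

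The 39 other tubule transport genes give the neighbours of these carriers in the same cells. SCNN1A, a subunit of the epithelial sodium channel, had a site in all 15 tagged lists and no WT list (exact p = 0.00123, adjusted p = 0.0305), and was the only 1 of the 39 to pass (2.56%, beside 4.02% of all genes). Without the replicate 2 lists, without any single WT list, or with the replicate number as a block, 0 of all genes passed, SCNN1A included. In each of these settings the smallest p that a gene can reach is larger. This loss therefore cannot show that the SCNN1A site depends on those lists. At an unadjusted p under 0.05, 10 of the 39 genes (25.6%, beside 19.8% of all genes) had a site in more tagged lists. The proton pump subunit ATP6V0A4, the endocytic receptor CUBN, the bicarbonate carrier SLC4A4 and the calcium exchanger SLC8A1 also had 15 lists. The water channel AQP2, the calcium binder CALB1, the potassium channel KCNJ1, the amino acid carrier SLC7A9 and uromodulin (UMOD) had none.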

How the data were processed

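Analysis started from the 18 anti-V5 peak lists as deposited. Per the labels and methods, the authors aligned reads to hg38 with Bowtie2 2.3.4.1, called peaks with MACS2 for each library against its own IgG library, without pooling replicates, and removed blacklisted regions with bedtools 2.28.0. The deposited lists give, for each summit, a linear fold ratio to the local background, along with p-values and q-values as −log10. These values were scaled by the authors within 1 list each, so the level of fold is not comparable between lists. IgG libraries were not analysed separately here.

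Genes, starts and parts of genes came from GENCODE 44. Peaks overlapping by at least 1 bp were merged across lists. Calls per gene were compared with two-sided Fisher's exact tests, and fold at shared regions with limma 3.58.1 in R 4.3.3, with Benjamini-Hochberg adjustment over all genes or regions tested. Other steps used Python 3.11.15, pandas 2.3.3, SciPy 1.17.1, pysam 0.24.0 and matplotlib 3.10.9, and both tests were tested on simulated data. Depth was solved from fold and −log10 p of the lists.

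Members named with values were those with a site in at least 13 of 15 tagged lists, those differing by at least 4 of 6 lists between IDRs or DBDs, those with a site in at least 2 WT lists, a fixed set of 11 well-known tubule carriers, and those at a region passing the limma test. Some genes, and 1 site called in all tagged lists, are not reported here. Other names in the text were chosen after their values were seen. The members and lists were chosen with earlier results of these data known. Alternatives covered the window, the q-value threshold, list length, WT regions, normalization, each library left out, and, for shares and gene calls, all replicate 2 lists left out.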

Additional observations from a re-analysis of the deposited data

How the results depend on the processing

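The count of members called between tagged lines and WT, 0 by the Fisher test, was 1 with windows of 50 kb and with windows around the start alone. It was also 1 with a −log10 q of at least 5 and with lists cut to the length of the shortest tagged list. WT replicates 1 and 3 were shorter than that length, so tagged and WT lists were not all equal. With single lists left out the count was 0 to 1. Over all genes the count of 805 ranged from 0 to 1130 when single lists were left out. It was 0 without any single WT list and without the replicate 2 lists, settings in which the smallest p that a gene can reach is larger. The DBD difference in members' share, -3.08 points, was 0.256 with lists of equal length and -6.72 to 0.974 with single lists left out. The HRE share of 35.9% was 53.7% within 100 bp and 1.35% for TACGTG. Of all peaks, 2.62% to 5.15% by tagged list had TACGTG. Members were higher for it only in HIF-2α replicate 1, at 5.88% against 5.04%. The IDR count of 1 member region was 0 with quantile normalization and with ranks, and 0 to 1 with single lists left out.

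At the SLCO4A1 site 14.0 kb upstream the IDR value of 0.0236 turned to -0.12 with quantile normalization, -0.52 with ranks and -0.0447 with regions in 9 or more lists, and ran from -0.20 to 0.32 with single lists left out. Its DBD value of -0.0440 turned to 0.0156 with quantile normalization and ran from -0.25 to 0.25. With ranks the DBD value turned to -0.00398 at the SLCO4A1 site 18.7 kb upstream. The cause of these changes was not tested. The share below all genes and the lower share with the HIF-2α than with the HIF-1α IDR kept their sign in every setting run. For the IDR these include the replicate block, which could not change the difference.

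To look for pairing by replicate number, each line's mean was subtracted from the centred log2 fold at regions called in all exogenous lists. What remained was correlated between lists of different lines, so these values do not measure how alike the lists themselves were. Lists with the same replicate number correlated at 0.0292 to 0.201 over 18 pairs, with 8 over 0.1. For lists with different numbers the range was -0.118 to 0.0623 over 36 pairs, with 0 over 0.1. Every same-number pair was positive, and replicate 2 gave the longest list in every line. The numbers were still not taken as pairing in the main tests, because not every same-number pair was over 0.1, a bar set for this work. The main tests and the SDs therefore do not account for this shared spread. With the replicate number as a block, the IDR and DBD differences in share were -10.3 and -3.08 points, and members called were 0 in all gene tests. Each exogenous line had replicates 1, 2 and 3, so the block could not change these differences or a log2 difference. It could change only the p-values. The SLC12A8 site kept its call (1.22, limma adjusted p = 0.0234), while all genes called between tagged lines and WT went from 805 to 0. The smallest p that the block test can give is larger than that of the Fisher test. This drop therefore cannot show that the calls depend on the replicate.

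The lists give no read totals, and a fixed q-value calls fewer peaks in shallower libraries, so absent calls have no stated detection limit.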
